A study of Drosophila melanogaster with 12 samples.

Results

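Glial cells of the *Drosophila* nervous system wrap and insulate neurons, supply them with nutrients and clear dead cells and debris. Followed here were 8 genes long used to study them, of 14977 genes in the table: the transcription factors *gcm* (glial cells missing), *gcm2* and *repo* (reversed polarity), the G protein regulator *loco*, the receptor *moody*, the sodium pump subunit *nrv2*, the engulfment receptor *drpr* (draper) and the midline glia protein *wrapper*. They were chosen by name for what is known of them in glia, and by no cut on measured values. Earlier results of these data were known when they were chosen.

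Whole embryos were sampled at 6 ages: up to 45 min after laying for T1 and 45 to 90 min for T2, both before the onset of most zygotic transcription, then 1.5 to 6 h for T3, 6 to 12 h for T4, 12 to 18 h for T5 and 18 to 24 h for T6. RNA of each timepoint gave 1 miCLIP and 1 mRNA-seq library, so there were 12 libraries and no replicates, and every difference describes these libraries only. In miCLIP, an antibody against *N*6-methyladenosine (m6A) is cross-linked to RNA fragments that are then pulled down and sequenced, so a gene is read more where its RNA is abundant as well as where it is methylated. The embryos carried no named mutation or treatment, and their strain is Canton S in the collection protocol and yw in the strain entry. No glia were sorted, and in whole embryos fewer cells of a type and less RNA per cell cannot be told apart.

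Levels are FPKM, which are scaled by gene length and by library. Since each value is a whole multiple of what 1 read of that gene is worth, the number of reads behind it could be worked out, and came to between 4251686 and 14484576 on genes per miCLIP library and between 23127955 and 25486971 per mRNA-seq library. The early miCLIP libraries were sparse, with 52.49% of genes listed at 0 in T1, 48.98% in T2 and 28.91 to 31.5% from T3 to T6. The summed FPKM of a library was not fixed. For mRNA-seq it was 1060882 in T6, against 314435.5 in T1, so changes of the 8 glial genes, and the mRNA-seq timing of the genes listed beside them, were also computed with all libraries scaled to 1 sum.

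In the fly embryo, *gcm* acts as a switch that turns neural precursors into glia, with *gcm2* as a weaker partner. Their product activates *repo*, which encodes a homeodomain protein and serves as the standard nuclear marker of all lateral glia, and *repo* in turn sustains the mature glial program. Midline glia arise separately, without *gcm*, under the factor *sim*. The genes for signalling, ion transport and engulfment work in the differentiated cells, and several of them also act outside the nervous system.

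Only in T4 were all 8 genes at 1 FPKM or more in mRNA-seq, and their courses around it differed. Of them, 4 had at least 1 FPKM in both T1 and T2, 5 had it in T3, all 8 had it in T4, and 7 had it in T5 and T6, where *gcm2* was below. From T1 to T6 their summed level was 24.7, 21.3, 99.9, 239, 235 and 156 FPKM. A total of 6 had their highest level in T4 and the other 2, *moody* and *nrv2*, in T5, whereas over the 11026 genes with at least 1 FPKM in a library T4 was the highest for 9.9%, T5 for 21.9% and T6 for 33.7%. With all libraries scaled to 1 sum, *moody* and *nrv2* were also highest in T4, which was then the highest for 15.2% of all these genes.

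**Figure D1:**
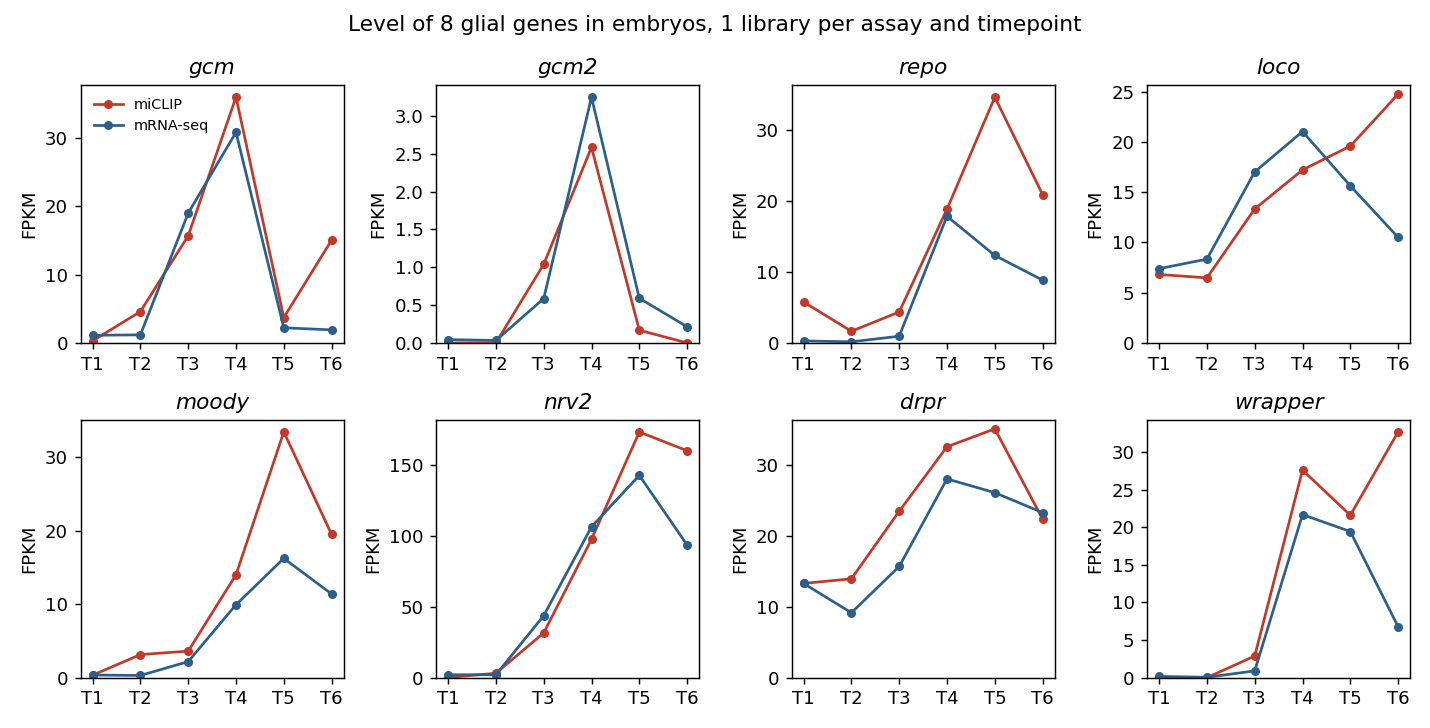
FPKM of each glial gene (vertical axis, own scale per panel, from 0) at timepoints T1 to T6, in miCLIP (red) and mRNA-seq (blue), with 1 library per point. In mRNA-seq, *gcm* and *gcm2* are highest in T4 and low again in T5, *repo* and *wrapper* are under 1 FPKM up to T3, and *loco* and *drpr* are already present in T1.

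The master regulator *gcm* had 1.12, 1.18, 19.0, 30.9, 2.22 and 1.91 FPKM in mRNA-seq from T1 to T6. It was thus a pulse, with T3 and T4 far above the 4 other timepoints. Of the 3952 mRNA-seq reads on *gcm*, 34.3% came from T3 and 56.4% from T4. The T3 level was 16.1 times the T2 level, with an interval of 13.1 to 19.98. Intervals here and below are exact 95% Clopper-Pearson intervals for a ratio of recovered reads and cover counting error only. In T5 it was 0.0719 times the T4 level (0.0583 to 0.0877), while T6 and T5 did not differ beyond counting error (0.860, 0.626 to 1.18).

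Its partner *gcm2* had 0.0440, 0.0323, 0.586, 3.25, 0.590 and 0.213 FPKM over the same libraries. T4 alone held 73.8% of its 480 reads. The pulse of *gcm2* was narrower than that of *gcm* on the rising side only. In T3 *gcm2* was at 18.0% of its highest level, against 61.6% for *gcm*, and in T5 at 18.2% against 7.19%. The level of *gcm* was 32.4 times that of *gcm2* in T3, 9.50 times in T4 and 3.76 times in T5. These ratios depend on the gene models, since the length that the recovered reads imply for *gcm2*, relative to other genes, was 1.44 times its annotated length, against 1.02 times for *gcm*. The genes lie near each other on chromosome arm 2L, on opposite strands, with 3 annotated genes between them, and their levels correlated across the 6 libraries at 0.85 (Pearson's r of log2 values). All correlations across these 6 points share the same libraries and are given as descriptions.

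The glial marker *repo* followed later. Its mRNA-seq levels were 0.287, 0.153, 0.947, 17.8, 12.3 and 8.84 FPKM from T1 to T6, so it was at or under 1 FPKM while *gcm* was already at 19.0 FPKM in T3. The T4 level was 18.8 times the T3 level (15.2 to 23.5). In contrast to *gcm*, it was at 69.1% of its highest level in T5 and at 49.6% in T6. With all libraries scaled to 1 sum, it was 0.402 and 0.213 times its T4 level in T5 and T6, against 0.0419 and 0.0265 times for *gcm*. From T3 to T6 the ratio of *repo* to *gcm* was 0.0498, 0.578, 5.55 and 4.63, so the order of the 2 factors was turned round between T4 and T5.

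Among the receptors and regulators, *moody* encodes a G protein-coupled receptor of the surface glia that form the blood-brain barrier. It had 0.355, 0.302, 2.18, 9.93, 16.2 and 11.4 FPKM in mRNA-seq from T1 to T6. The T3 level was 7.23 times the T2 level (5.25 to 10.2), and the T4 level 4.55 times the T3 level (3.99 to 5.20). The regulator of G protein signalling *loco*, which acts with *moody* in the barrier, was present from the start, with 7.39, 8.34, 17.0, 21.0, 15.6 and 10.5 FPKM. As deposited, its levels spanned less than 3-fold, and with all libraries scaled to 1 sum they spanned 4.66-fold, with the lowest level in T6, whereas *moody* was under 0.4 FPKM in T1 and T2.

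Their G protein partners, the alpha subunits *Galphai* and *Galphao*, the beta subunit *Gbeta13F* and the gamma subunit *Ggamma1*, were all above 10 FPKM in each mRNA-seq library. The alpha subunits moved in opposite directions between T3 and T5. From T3 to T6, *Galphai* had 257, 125, 63.1 and 56.2 FPKM, and *Galphao* had 10.5, 25.2, 58.2 and 53.5 FPKM. In T4 over T3, 1 of the 4 partners was over 2-fold higher (*Galphao*; 24.9% of all genes tested) and 1 over 2-fold lower (*Galphai*; 11.2%). *Galphao* was over 2-fold higher again in T5 over T4 (34.1%), though not with all libraries scaled to 1 sum.

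The most abundant member was *nrv2*, which encodes a beta subunit of the sodium and potassium pump and acts in glia and in epithelia with septate junctions. It had 2.06, 2.05, 43.6, 106, 142 and 93.4 FPKM in mRNA-seq from T1 to T6. From T3 to T6 it made up between 43.6 and 60.6% of the summed level of the 8 genes. The T3 level was 21.3 times the T2 level (18.8 to 24.1), and the T4 level 2.43 times the T3 level (2.36 to 2.52).

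The beta subunits changed their shares over time. Of the summed level of *nrv1*, *nrv2* and *nrv3*, *nrv2* held 2.38, 2.27, 73.5, 59.9, 37.7 and 23.9% from T1 to T6. The subunit *nrv1* had 15.6 FPKM in T3, against 88.3 in T2, and the subunit *nrv3*, known from the nervous system, had 102 FPKM in T5, against 4.70 in T4. The catalytic alpha subunit *Atpalpha* had 38.9, 146, 329 and 381 FPKM from T3 to T6. In T4 over T3 all 3 partners were over 2-fold higher (24.9% of all genes tested) and in T5 over T4 2 of them (34.1%). As deposited, all 3 were highest in T6, as were 33.7% of all genes with at least 1 FPKM in a library. With all libraries scaled to 1 sum, none was, against 17.8% of all genes, since *Atpalpha* and *nrv3* were highest in T5 and *nrv1* in T1. Under that scaling 1 was over 2-fold higher in T5 over T4, and the share of all genes for this count is not given here.

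The engulfment receptor *drpr*, through which glia and other phagocytes take up dying cells, had 13.3, 9.16, 15.7, 28.1, 26.1 and 23.3 FPKM in mRNA-seq from T1 to T6. It was the highest of the 8 genes in T1 and T2, before a nervous system has formed, and varied least of them together with *loco*. Among 4 engulfment partners in the table, the adaptor *ced-6*, the GTPase *Rac1* and the kinase *Shark* were also present in T1, at 101, 62.4 and 20.9 FPKM. The phagocytic receptor *NimC4* had 116, 240.5, 21.5 and 4.04 FPKM from T3 to T6. It was over 2-fold lower in each of the last 2 steps, and thus had a pulse in T3 and T4 while *drpr* was at 93.1 and 83.0% of its highest level in T5 and T6. With all libraries scaled to 1 sum, *drpr* had 61.6, 33.4 and 22.0 from T4 to T6, with its lowest level in T6. Under that scaling *NimC4* had 528, 27.5 and 3.81.

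Embryonic macrophages, the hemocytes, also use *gcm*, *gcm2* and *drpr*, so 6 hemocyte markers were measured beside them. Their summed mRNA-seq level lay between 56.8 and 107 FPKM over the 6 libraries, and 4 of 6 were at 1 FPKM or more in T3 and T4. The GATA factor *srp* had 20.6 FPKM in T4 and 20.5 in T3, the matrix enzyme *Pxn* had 27.1 in T4 and 3.80 in T3, and the defining late markers *Hml* and *NimC1* were under 0.4 FPKM in both, with *NimC1* listed at 0 in T3. The scavenger receptor *crq* was highest in T1, at 62.2 FPKM. The part of hemocytes in the levels of *gcm*, *gcm2* and *drpr* was not tested.

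The midline glia protein *wrapper*, an immunoglobulin family member on the surface of the cells that ensheath commissural axons, had 0.174, 0.0511, 0.899, 21.7, 19.4 and 6.77 FPKM in mRNA-seq. It was under 1 FPKM up to T3 and then 24.1 times as high in T4 as in T3 (18.7 to 31.7), the widest step of the 8 genes between these timepoints, though its interval overlaps that of *repo*. In T6 it was 0.348 times its T5 level (0.301 to 0.403). The midline factor *sim* came before it, with 2.33 FPKM in T4, against 5.10 in T3, and the midline guidance ligand *sli* had 51.6, 72.5, 54.8 and 21.9 FPKM from T3 to T6.

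Counted between neighbouring timepoints, the glial genes were over 2-fold higher in T3 and T4 and in no later step. A gene counted as tested here with at least 1 FPKM in either library, and as over 2-fold where its log2(FPKM + 1) values differed by more than 1, a scale on which changes of low genes come out too small. In T2 over T1, 4 were tested and 0 were over 2-fold higher or lower (0.352% and 5.74% of all genes tested). In T3 over T2, 3 of 5 were higher (*gcm*, *moody* and *nrv2*; 20.8% of all genes) and 0 lower (12.4%). In T4 over T3, 5 of 8 were higher (*gcm2*, *repo*, *moody*, *nrv2* and *wrapper*; 24.9%) and 0 lower (11.2%).

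From T5 on the counts were on the other side. In T5 over T4, 0 of 8 glial genes were over 2-fold higher, where 34.1% of all genes were, and 2 were lower (*gcm* and *gcm2*; 9.35%). In T6 over T5, 0 of 7 were higher (16.2%) and 1 was lower (*wrapper*; 10.5%). Over the last 4 steps the median log2 change of the members tested was 1.29, 1.34, -0.28 and -0.48, against medians of 0.16, 0.13, 0.35 and 0.13 over all genes tested. Scaling to 1 sum moved the all-gene median of T5 over T4 to -0.36. Under it 4 members were over 2-fold lower in that step, with *repo* at -1.26 and *loco* at -1.17. The share of all genes lower under this scaling is not given here, so the 9.35% does not apply to that count. The changes of *moody* and *nrv2* turned negative (-0.07 and -0.35).

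**Figure D2:**
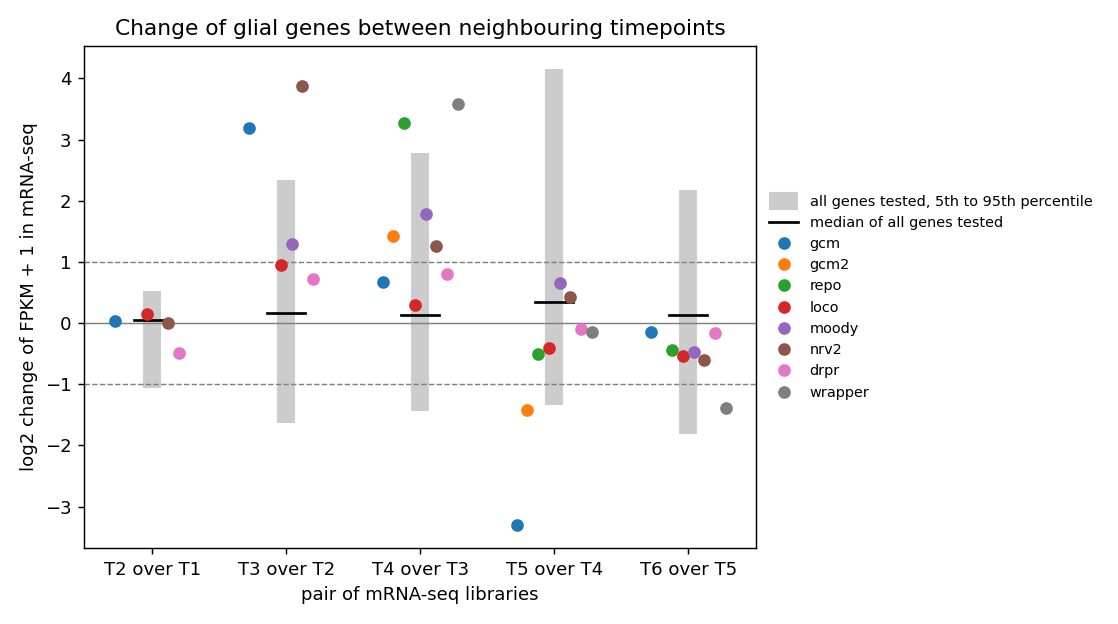
Log2 change of FPKM + 1 in mRNA-seq (vertical axis) for each pair of neighbouring timepoints (horizontal axis), with 1 point per glial gene tested, grey bars for the 5th to 95th percentile of all genes tested and a black line for their median. Dashed lines mark 2-fold. The glial genes lie above the median of all genes in T3 over T2 and in T4 over T3, with *wrapper* at 3.58 and *repo* at 3.27 in the second, and *gcm* lies at -3.31 in T5 over T4.

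Several genes of mature glia came later than the 8 members. A list of 12 other genes known from glia was set beside them, and 6 of these were highest in T6, as were 33.7% of all genes and 0 of the 8. After scaling to 1 sum, 4 of the 12 and 17.8% of all genes were highest in T6. The glutamate transporters *Eaat1* and *Eaat2*, the glutamine synthetase *Gs2*, the barrier transporter *Mdr65*, the astrocyte-like protein *alrm* and the cortex glia enzyme *Cyp4g15* each had between 90.8 and 99.3% of their summed mRNA-seq level in T5 and T6, and at most 11.4% of their highest level in T4. These 6 were singled out for their late course and are not the 6 highest in T6, since *alrm* was highest in T5. The gene *ana*, also highest in T6, had 70.8% of its summed level in T5 and T6 and 32.8% of its highest level in T4. *Eaat1* had 0.226, 35.7 and 39.4 FPKM from T4 to T6. In T5 over T4, 6 of the 12 were over 2-fold higher (34.1% of all genes) and 1 was lower (*bnb*; 9.35%), with a median log2 change of 1.34. Scaled to 1 sum, 6 were higher and 4 lower, while the median of all genes was -0.36, and their shares under this scaling are not given here.

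Other genes of the list were early, too. The ETS factor *pnt*, which acts in both lateral and midline glia, had 19.6 FPKM in T4 and 18.1 in T3, and *bnb*, a marker of early glia, had 366 in T4 and 365 in T3. In T3 over T2, all 7 genes of the list that were tested were over 2-fold higher (20.8% of all genes). The septate junction gene *Gli* had 28.2, 52.3, 65.5 and 26.0 FPKM from T3 to T6.

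Neuronal markers were measured as another class of cells that differentiates in these embryos. From T1 to T6 their summed mRNA-seq level was 3.07, 1.93, 13.5, 72.5, 174 and 193 FPKM. In T6, 5 of 7 were highest, as were 33.7% of all genes. On libraries scaled to 1 sum, 2 of 7 were highest in T6 (17.8% of all genes) and 4 in T5 (18.1%). The summed level was then 222 in T5 and 182 in T6. The early neuronal gene *elav* was highest in T4, at 49.7 FPKM, as were 6 of the glial genes. The synaptic genes *nSyb*, *brp* and *Syt1* had between 18.3 and 58.1 FPKM in T5, against between 1.33 and 5.08 in T4.

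**Figure D3:**
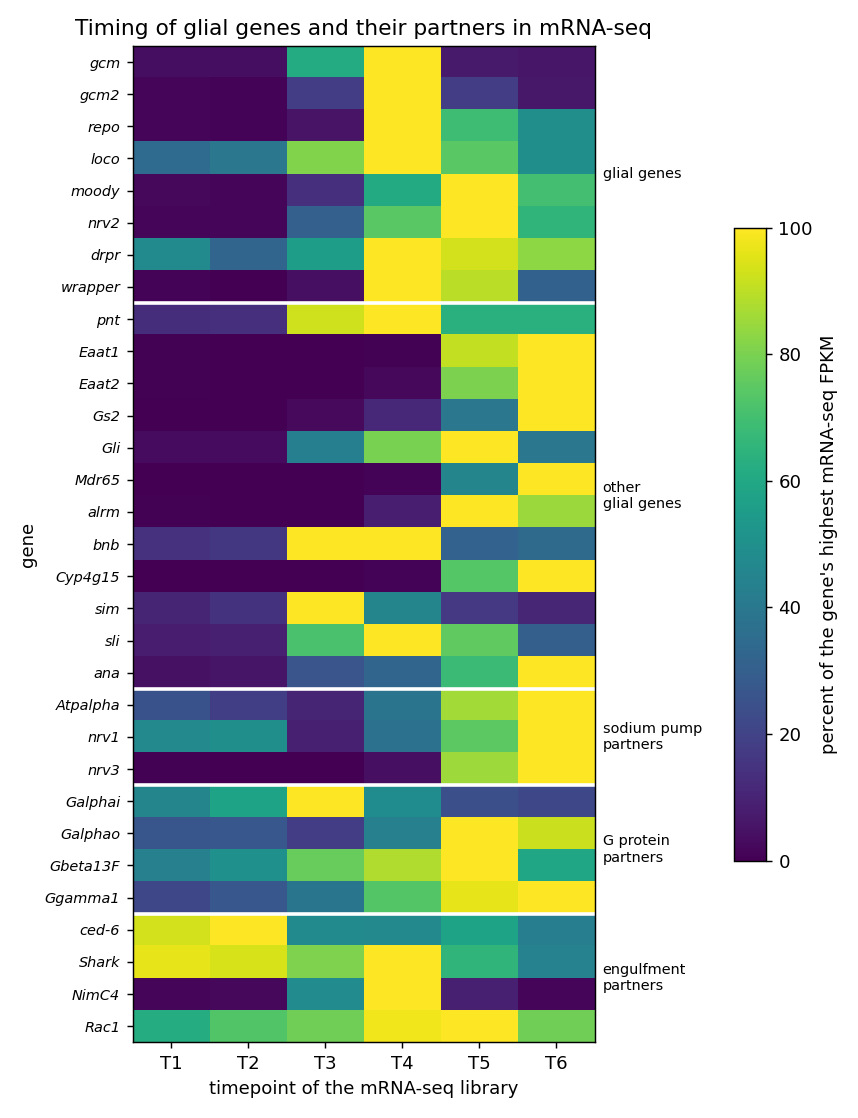
Level of each gene as a percent of its own highest mRNA-seq FPKM (color), for timepoints T1 to T6 (horizontal axis), with the 8 glial genes in the top block, then 12 other glial genes, 3 sodium pump, 4 G protein and 4 engulfment partners. Of the 8 glial genes, 6 are brightest in T4, and *moody* and *nrv2* in T5, and *Eaat1*, *Eaat2*, *Gs2*, *Mdr65* and *Cyp4g15* in T6.

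Within the 8 genes, some mRNA-seq courses were close to each other and some were not. Across the 6 libraries, *repo* and *wrapper* correlated at 0.99, *repo* and *moody* at 0.96, *moody* and *nrv2* at 0.95, and *drpr* and *repo* at 0.96. The lowest values all involved *gcm*, at 0.29 with *moody*, 0.37 with *repo* and 0.38 with *wrapper*. Among genes with at least 10 FPKM in a library, the course most like that of *gcm* was found for *CG17343*, the zinc finger factor *sens* (senseless) and the ETS repressor *aop*, at 0.99 or above. For *repo* these were *fng* (fringe), *CG14995* and *gol* (goliath), and for *wrapper* they were *Fkbp14*, *ara* (araucan) and *Tep2*.

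For the other members they were *Pdi*, *CG9650* and *yellow-e2* with *gcm2*, *18w*, *CG10283* and *Spase22-23* with *loco*, *klg*, *ham* and *bru-2* with *moody*, *Lip4*, *CG13894* and *sty* with *nrv2*, and *Tapdelta*, *CG6488* and *CG10948* with *drpr*. A count of 28 genes correlated with *repo* at 0.99 or more, 37 with *moody*, 27 with *nrv2*, 24 with *wrapper*, 6 with *loco*, 4 with *drpr*, 3 with *gcm* and 0 with *gcm2*. With 6 points such values are common and are a description only.

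In miCLIP, the RNAs of all 8 genes were recovered from the timepoints in which they were abundant. In T4, where all 8 passed 1 FPKM in both assays, miCLIP and mRNA-seq levels lay within 2-fold of each other for every member. Over the 33 pairs of member and timepoint that passed this filter, the log2(FPKM + 1) ratio of miCLIP over mRNA-seq was above 0 in 24, over 2-fold higher in 6 and over 2-fold lower in 0. The share of all genes above 0 is not given here. Their median ratio was 0.28 in T1, 0.01 in T2 and between -0.16 and -0.07 from T3 to T6. The 6 member pairs over 2-fold higher were *gcm* in T2, *repo* in T5, and *gcm*, *repo*, *loco* and *wrapper* in T6. Members of a timepoint share their pair of libraries, so these pairs are not independent. With all libraries scaled to 1 sum, *gcm*, *repo* and *drpr* turned to -0.09, -0.23 and -0.10 in T4, and *drpr* to -0.54 in T1.

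By timepoint, 0 of 2 members tested were over 2-fold higher or lower in T1 (24.8% and 16.3% of all genes tested), and 1 of 4 was higher and 0 lower in T2 (11.8% and 10.8%). In T3, 0 of 5 were higher or lower (9.96% and 6.63%), and in T4 0 of 8 (8.14% and 7.26%). In T5, 1 of 7 was higher and 0 lower (14.3% and 16.5%). In T6, 4 of 7 were higher and 0 lower (20.6% and 27.3%), with a median log2 ratio of 1.15 for the members and -0.16 for all genes tested.

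**Figure D4:**
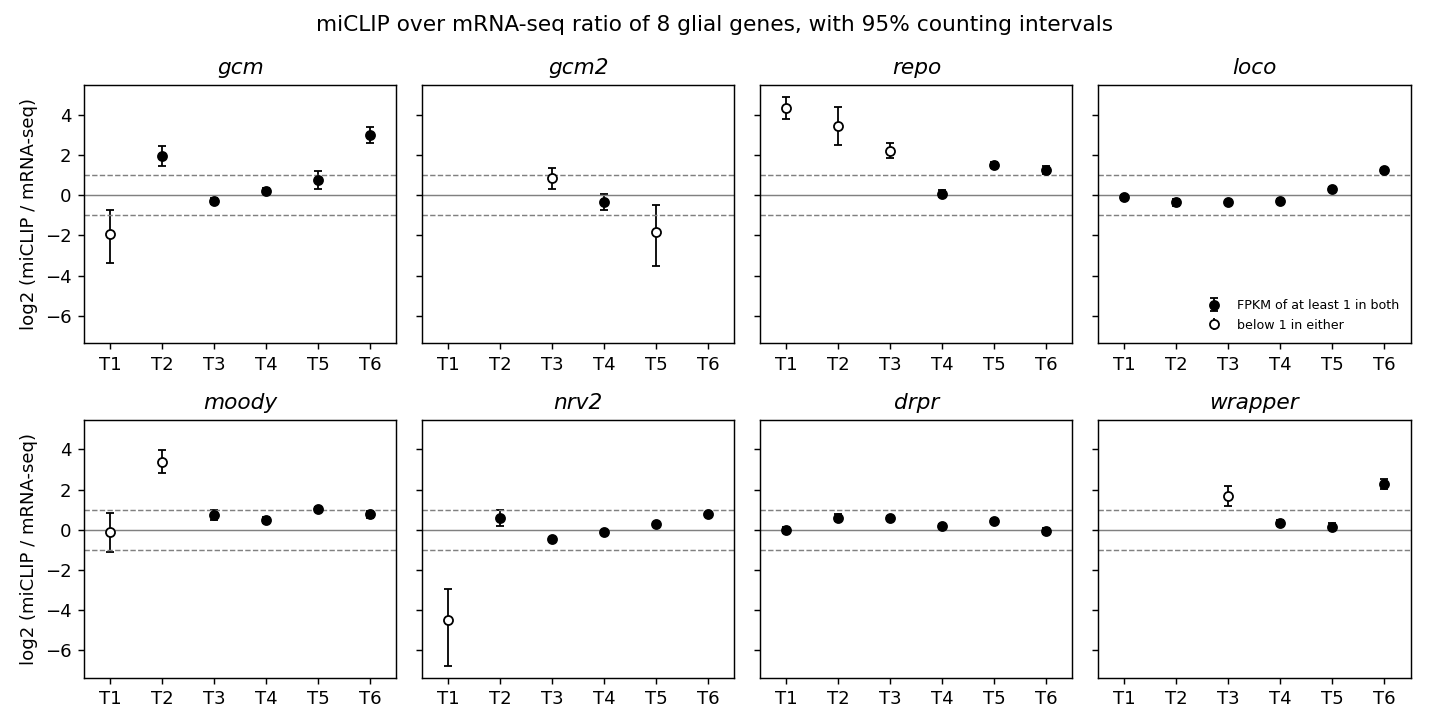
Log2 ratio of miCLIP over mRNA-seq FPKM, without a pseudocount (vertical axis), at T1 to T6 for each glial gene, with bars for the 95% counting interval. Filled points had at least 1 FPKM in both libraries and open points did not, dashed lines mark 2-fold, and pairs with no miCLIP read are not drawn. Filled points lie within 2-fold in T3 and T4, and *gcm* (2.98) and *wrapper* (2.27) stand above 2-fold in T6.

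For *gcm*, miCLIP levels were 0.297, 4.59, 15.7, 36.0, 3.71 and 15.1 FPKM from T1 to T6. They followed the pulse of mRNA-seq from T3 to T5 but were high again in T6, at 15.1 FPKM on 169 reads in miCLIP against 1.91 FPKM on 71 reads in mRNA-seq. The T6 ratio was 7.90 (5.95 to 10.6), the highest of the 8 genes in that timepoint. In T2 the ratio was 3.89 (2.75 to 5.46), on 56 reads in miCLIP and 97 in mRNA-seq. In T1 it was 0.266 (0.0952 to 0.599), on 6 reads in miCLIP and 101 in mRNA-seq, and did not pass the filter. *CG31709*, which is annotated as overlapping *gcm* on the same strand, had 3.43 FPKM in miCLIP and 0 in mRNA-seq in T6. It had 0.743 FPKM in miCLIP and 0 in mRNA-seq in T2, and its part in the *gcm* ratios was not tested.

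For *gcm2*, miCLIP gave 127 reads in all, and 0 in T1, T2 and T6. The floor of 3 reads stood at 0.0983 FPKM in T1, 0.163 in T2 and 0.177 in T6. The mRNA-seq levels of T1 and T2, 0.0440 and 0.0323 FPKM, lay below it, so such levels were not detectable in miCLIP at this depth. In T6, with 0.213 FPKM in mRNA-seq, *gcm2* was not detected in miCLIP. In T4 it had 2.59 FPKM in miCLIP and 3.25 FPKM in mRNA-seq, a ratio of 0.796 with an interval of 0.599 to 1.04. The T6 miCLIP library thus held 169 reads of *gcm* and 0 of *gcm2*, while in T4 it was 581 and 63.

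For *repo*, miCLIP levels were 5.76, 1.64, 4.36, 18.8, 34.6 and 20.9 FPKM. Their maximum lay in T5, against T4 in mRNA-seq. Set against mRNA-seq, it was 1.06 times as high in T4 (0.946 to 1.18), 2.81 times in T5 (2.55 to 3.10) and 2.36 times in T6 (2.04 to 2.73). The intervals of T4 and T5 do not meet, so the ratios of these library pairs differed beyond counting error.

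In T1, *repo* had 157 reads and 5.76 FPKM in miCLIP, against 35 reads and 0.287 FPKM in mRNA-seq, and did not pass the filter because of the low mRNA-seq level. These 157 reads were 7.66% of its miCLIP reads over all timepoints. Of 1563 other genes that had under 0.5 FPKM in T1 and T2 and at least 10 FPKM later in mRNA-seq, 30 had as large a share in T1, and their median share was 0%. *CG7156*, on the strand opposite to *repo* and overlapping it, had 90.04 FPKM in miCLIP and 24.7 in mRNA-seq in T1. In T2 *CG7156* had 10.9 FPKM in miCLIP, when *repo* had 1.64. The strand setting of the read counting is not given in the sources used here, and the part of *CG7156* in the early *repo* reads was not tested.

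The surface glia receptor *moody* had 0.335, 3.14, 3.61, 14.0, 33.4 and 19.5 FPKM in miCLIP. From T3 to T6 its ratio to mRNA-seq was 1.65 (1.39 to 1.97), 1.41 (1.26 to 1.58), 2.06 (1.90 to 2.23) and 1.71 (1.51 to 1.94), so it was above 1 in 4 of 4 timepoints that passed the filter. The T5 value lay just under the 2-fold line on the log2(FPKM + 1) scale and did not count as over it. In T2 it had 68 reads in miCLIP and 44 in mRNA-seq, a ratio of 10.4 (7.02 to 15.6) that did not pass the filter. *CG4313*, on the opposite strand and overlapping *moody*, had 5.32 FPKM in miCLIP in T2 and 18.0 in T5, against 2.93 and 9.50 in mRNA-seq, and its part was not tested.

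Its regulator *loco* had 6.81, 6.48, 13.3, 17.2, 19.6 and 24.8 FPKM in miCLIP, higher in each timepoint from T3 on than in the one before, while mRNA-seq was highest in T4. With all libraries scaled to 1 sum, its miCLIP level was highest in T4 too. From T1 to T6 the ratio was 0.921, 0.776, 0.783, 0.818, 1.25 and 2.36. The intervals of T2, T3 and T4 lay below 1 and those of T5 and T6 above it. The antisense RNA *CR43474*, which overlaps *loco*, had 20.5 FPKM in miCLIP in T5 and 10.3 in T6, and 6.51 and 5.16 in mRNA-seq, and its part was not tested. The partners *Galphao* and *Gbeta13F* had log2 ratios of 0.996 and 1.17 in T5 and 0.54 and 1.23 in T6.

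The pump subunit *nrv2* had 0.0923, 3.11, 31.5, 97.4, 173 and 159.7 FPKM in miCLIP. The T1 level rested on 3 reads, against 300 reads in mRNA-seq, a ratio of 0.0447 (0.00917 to 0.132). In T2 the ratio was 1.52 (1.13 to 2.01), in T3 0.722 (0.684 to 0.761), in T4 0.917 (0.879 to 0.958), in T5 1.21 (1.18 to 1.25) and in T6 1.71 (1.63 to 1.79). The counting intervals were narrow for this gene, and from T2 on all ratios stayed within 2-fold. No other gene is annotated as overlapping *nrv2*. Among its partners, *nrv3* was over 2-fold higher in miCLIP in T4 and T5 (log2 ratios of 1.12 and 1.91) and *nrv1* in T3 (1.26), and *Atpalpha* lay between -0.49 and 0.21 in all 6 timepoints.

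The engulfment receptor *drpr* had 13.3, 14.0, 23.5, 32.6, 35.1 and 22.4 FPKM in miCLIP. Its ratio lay between 0.961 and 1.52 in the 6 timepoints, and the intervals of T1 (0.912 to 1.10) and T6 (0.871 to 1.06) included 1. In T6, where 4 members were over 2-fold higher, *drpr* had a log2 ratio of -0.06. It was 0.04 with all libraries scaled to 1 sum and 0.10 with ratios centred on their median. *Oseg4* and *CG18171* overlap *drpr* on the same strand. *Oseg4* had 11.7 FPKM in miCLIP in T1 and 0.650 in mRNA-seq, and *CG18171* had 8.73 in miCLIP in T6 and 1.29 in mRNA-seq. Their part was not tested.

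The midline gene *wrapper* had 0, 0, 2.88, 27.6, 21.6 and 32.7 FPKM in miCLIP, with 103, 424, 405 and 349 reads from T3 to T6. The ratio was 1.27 in T4 (1.14 to 1.42), 1.11 in T5 (0.985 to 1.25) and 4.83 in T6 (4.08 to 5.71), on 349 reads in miCLIP and 240 in mRNA-seq. Its miCLIP level was highest in the timepoint in which its mRNA-seq level was the lowest since T4. With all libraries scaled to 1 sum it was highest in T4, at 48.6 against 33.1 in T6. The midline genes *sli* and *sim* had log2 ratios of 2.37 and 1.01 in T6, the second on under 1 FPKM in mRNA-seq, and *sli* had 118 FPKM in miCLIP against 21.9 in mRNA-seq. No other gene is annotated as overlapping *wrapper*.

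Several late glial genes lay on the other side in T6. Of the 12 other glial genes, 11 were tested in T6, of which 3 were over 2-fold higher in miCLIP (*pnt*, *bnb* and *sli*; 20.6% of all genes) and 5 lower (*Eaat1*, *Eaat2*, *Gs2*, *Mdr65* and *Cyp4g15*; 27.3%). *Gs2* had 65.7 FPKM in miCLIP against 412 in mRNA-seq, and *Mdr65* had 2.44 against 44.0. Set against the same shares of all genes, 2 of 6 hemocyte markers were higher (*srp* at 1.38 and *ush* at 1.88) and 1 lower (*Hml* at -1.82). Of 7 neuronal markers, 2 were higher (*elav* at 2.74 and *futsch* at 1.02) and 0 lower, with a median of -0.05. Of 4 engulfment partners, 2 were higher (*NimC4* at 2.82 and *ced-6* at 1.01) and 0 lower, and the kinase *Shark* had -0.26.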

How the data were processed

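The values used were FPKM per gene, which the authors made by trimming reads with Flexbar, removing PCR duplicates from miCLIP with pyCRAC, mapping with Subread-align, counting on genes with featureCounts and scaling with DEseq, and which they deposited as 1 table. The mRNA-seq kit marked strand, but the strand setting of the counting and the treatment of reads shared by genes are not given in the sources used here. All 12 value columns matched a library by name, and 0 were left over.

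Ratios were differences of log2(FPKM + 1), over genes with at least 1 FPKM in both libraries (miCLIP over mRNA-seq) or in either (between timepoints), and over 2-fold was the threshold. No test was made, since each assay has 1 library per timepoint. Reads were recovered for 13982 genes, and the other 995 had none. In a simulation of these 12 libraries, 99.9% of 10952 genes with reads in at least 6 libraries were exact. In the deposited values, of 4355 genes with at least 30 reads in every library, between 48.9 and 51% had an odd number. Values were computed with Python 3.11.15, numpy 2.4.6, pandas 2.3.3 and scipy 1.17.1.

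The 8 genes and the lists beside them were chosen with earlier results of these data known, the lists from general knowledge. The text names all members, the 3 genes whose mRNA-seq course correlated most with each, among genes with at least 10 FPKM in a library, and genes of the lists. The engulfment gene *Src42A* was on its list and is not analysed here. Neighbours and overlaps come from the annotation of BDGP6.54, a later assembly than the one mapped to, so no coordinates are given. No sequences were analysed here. Alternatives were a pseudocount of 0.1, no filter, at least 20 reads, a fold of 1.5, ratios centred on their median, libraries scaled to a sum of 1000000 and, added after the values had been seen, no pseudocount and that scaling for the listed genes.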

Additional observations from a re-analysis of the deposited data

Results flagged for a closer look

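Changes between neighbouring timepoints went opposite ways in the 2 assays for 3 glial genes, with at least 1 of the changes past 2-fold. For *nrv2* the log2 change of T2 over T1 was 1.91 in miCLIP, with 61 and 3 reads, and -0.00597 in mRNA-seq. For *gcm* the log2 change of T6 over T5 was 1.77 in miCLIP and -0.15 in mRNA-seq. For *wrapper* it was 0.58 in miCLIP and -1.39 in mRNA-seq. With 1 library per assay and timepoint, the difference between the assays was not tested. Of all genes compared, 23.4% went opposite ways by this measure in T2 over T1 and 25.9% in T6 over T5, against 4.09 to 8.38% in the steps between.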

How the results depend on the processing

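No direction past 2-fold was reversed by an alternative for the 8 genes. Without a filter on low values, and likewise with at least 20 recovered reads, 1 gene was higher and 1 lower in miCLIP in T1, 3 were higher in T2 and 2 in T3. In T5, 2 were higher in miCLIP with a pseudocount of 0.1, with ratios centred on their median and at a fold of 1.5. At a fold of 1.5, 5 were higher in mRNA-seq in T3 over T2, 1 was higher in T5 over T4 and 2 were lower in T6 over T5. Scaled to a sum of 1000000, 4 were lower in T5 over T4 and 2 in T6 over T5, and *moody* and *nrv2* had their highest level in T4. Shares of all genes counted as higher or lower under the alternatives are not given here. The other counts stayed within 1.5 times.

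For 65 single log2 values, the shift from the main setting was set against the reach of their counting interval to a side. The shift was larger for 35 under the scaling, 25 under centring, 11 with a pseudocount of 0.1 and 12 with none. A value counted here can still lie inside its interval, which was built on the ratio without a pseudocount. The scaling moved the median of all genes in T1 miCLIP over mRNA-seq to -0.26, against 0.28 as deposited. Among the genes listed beside the members, the scaling left 4 of 12 other glial genes highest in T6 (6 as deposited), 2 of 7 neuronal genes (5) and 0 of 3 pump partners (3). Of all genes, 17.8% were highest in T6 under the scaling and 33.7% as deposited. No fit with timepoint as a block was made. Depth limits *gcm2*, with 127 miCLIP reads in all, and T2 miCLIP, which had the fewest reads on genes (4251686). The T1 miCLIP library had 7348841 reads on genes, more than T4 (6772158), although 52.49% of genes were listed at 0 in it. Intervals cover counting error and no spread between embryo collections.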

Other observations

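Among the fly's sodium pump genes, the beta subunits also shifted in miCLIP. Of the summed miCLIP level of *nrv1*, *nrv2* and *nrv3*, *nrv2* held 40.8% in T3, against 73.5% in mRNA-seq, and 28.2% in T6, against 23.9% in mRNA-seq. *nrv1* held 50.1% of it in T3 in miCLIP and 26.3% in mRNA-seq.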
